A study of Homo sapiens with 42 samples.

Results

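Transfer RNAs (tRNAs) for asparagine (Asn), glutamine (Gln), threonine (Thr) and cysteine (Cys) encoded in the nuclear genome were followed in small RNA sequencing libraries. They were chosen as the annotated tRNA rows of the deposited count table, outside the mitochondrial chromosome and at most 500 bases long, whose name begins with 1 of these amino acids. The rule found 112 gene copies with 69 distinct names, of 499 nuclear tRNA rows and 175946 rows in all. They comprise 36 copies for Asn, 24 for Gln, 22 for Thr and 30 for Cys, and carry 8 of the 53 nuclear anticodons. Near-identical copies share reads, so counts were summed by anticodon. The copies are 66 to 76 bases long, so sums over copies can be compared between anticodons without a length correction.

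RNA polymerase III (Pol III) transcribes tRNA genes from promoter elements inside the gene, the A box and the B box, and terminates in a run of T residues just downstream. The mature tRNA carries its amino acid at the 3′ end and reads mRNA codons through the anticodon. tRNAs that carry the same amino acid with different anticodons are called isoacceptors, as CTG and TTG for Gln are. Cleaved tRNAs can keep ends that a standard small RNA ligation does not accept, and treatment with phosphatase and polynucleotide kinase (PNK) repairs such ends. POLR3G and POLR3GL are alternative subunits of Pol III.

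By the labels, A4, A7, E4 and G8 are groups of THP-1 cells, a human monocytic leukaemia line, in a series on knockout of POLR3G and POLR3GL. The labels do not say which gene was targeted in which group or whether a group is 1 clone, so the groups were kept apart. The libraries labelled mock are described as HEK293T cells, a human embryonic kidney line, given 200 nM of a control antisense oligonucleotide. Small RNA was treated or not with Antarctic phosphatase and PNK (plus and minus PNK arms), with 3 libraries per group and arm and 30 in all. The other 12 labelled samples are not analysed here. The table annotates non-coding RNA and has no row named for either subunit, so loss of either was not checked here. Nothing in the labels says that libraries of a group came from separate cultures, so the p-values cover no more than the spread among the libraries at hand, which may be technical.

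Of the 112 copies, 3 lie whole inside a 300-base RefSeq window around the start of a neighbouring gene (GRCh38.p14), and these genes are shown to illustrate an Asn and a Thr member. Each is written 5′ to 3′ along the tRNA, with the anticodon in capitals.
TRN-GTT6-1: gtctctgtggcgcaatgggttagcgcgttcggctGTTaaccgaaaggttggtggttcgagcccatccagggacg
TRN-GTT4-1: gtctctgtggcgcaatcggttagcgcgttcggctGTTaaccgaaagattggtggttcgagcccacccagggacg
TRT-TGT6-1: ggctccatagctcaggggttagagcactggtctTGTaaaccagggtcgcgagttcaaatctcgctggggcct
TRN-GTT6-1 lies at chr1:143735920-143735993 on the minus strand, outside any other GENCODE gene. TRN-GTT4-1 lies at chr1:16889677-16889750 on the plus strand, in an intron of CROCC. TRT-TGT6-1 lies at chr5:181191687-181191758 on the minus strand, over an exon of the long non-coding RNA LINC01962. Counted from the 5′ end of TRN-GTT6-1, TRN-GTT4-1 differs at 3 of 74 bases, G17C, G47A and T65C, which shows how little separates 2 Asn copies. All 3 genes hold the B-box-like letters GTTCNANNC, beginning at base 54 in the Asn genes and base 52 in the Thr gene. These letters occur on either strand in 7.48% of 35116 RefSeq windows of 300 bases. The first run TTTT follows the gene after 11 bases in the Asn genes and 9 in the Thr gene, and 71.4% of the windows hold TTTT on either strand. TRT-TGT6-1 held 3.06% of Thr-TGT counts in the minus PNK arm and 18.0% in the plus PNK arm.

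In RefSeq, 89 of the 112 rows match a tRNA gene with the same start, end and anticodon, and copies are named here by that symbol. In the GENCODE annotation 73 rows lie between genes, 34 in introns and 5 over exons. Chromosome 1 holds 43 rows, chromosome 6 holds 21, chromosome 7 holds 18 and chromosome 17 holds 14. In the 30 libraries the members had 369577 counts, of which Gln-CTG held 143026, Asn-GTT 90442, Cys-GCA 63337, Thr-TGT 38993, Thr-CGT 14116, Gln-TTG 12472 and Thr-AGT 7154. Asn-ATT, with 2 copies, had 37 counts. It was the only member that did not pass the filter on low counts, and 7 of 8 members were tested.

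Libraries held 9637896 to 13227907 counts without PNK and 4464341 to 6828738 with it, over rows that do not overlap. The members made up 0.0645% to 0.137% of those counts without PNK and 0.124% to 0.453% with it. Without PNK, G8 libraries 1 and 2 stood apart: miRNA made up 2.00% and 2.04% of their counts, against 12.9% to 25.8% in the other 13 libraries, and C/D snoRNA 90.9% and 92.5% against 62.9% to 74.9%. With PNK, G8 libraries 1 and 2 had 5855 and 5885 member counts and library 3 had 19975. Mock library 1 had 9485, against 24958 and 17525 in mock libraries 2 and 3. The mock libraries carried miRNA known from blood cells (7 rows, MIR142, MIR155 and MIR223 among them, 1 of them at 0) at 4810 to 7442 CPM (normalised counts per library of standard size) without PNK, a sum that overlaps that of A4, at 5370 to 7380. By this list mock was not set apart from A4 without PNK, although the labels give it another cell line. Which cells the mock libraries hold was not tested. The mock sum lay below that of A7 (8688 to 10390) and E4 (7663 to 8503) and overlapped that of G8 (856 to 6886). With PNK, at 96.3 to 97.7 CPM, it lay below A4, A7 and E4, at 212 to 664 CPM, and inside the range of G8 (45.9 to 155). The part of these miRNA in any result was not tested. CPM uses TMM factors within an arm. MiRNA known from epithelia summed to 26.8 to 41.7 CPM in mock and those from fibroblasts and muscle to 110 to 172, without PNK. The epithelial sum was 20.2 to 25.9 in A4, 57.65 to 69.2 in A7, 49.5 to 55.2 in E4 and 4.835 to 36.0 in G8. That of fibroblasts and muscle was 52.35 to 66.6 in A4, 192 to 241 in A7, 213 to 218 in E4 and 10.7 to 236 in G8. Without PNK mock lay above A4 and below A7 and E4 in both lists. With PNK the order against A4 differed, at low values. The epithelial sum was 0 to 0.653 CPM in mock, below A4 at 0.993 to 1.77. That of fibroblasts and muscle was 0.189 to 1.23 in mock and overlapped A4 at 0.993 to 1.44.

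Several of the named gene copies held different shares of their anticodon in the 2 arms. Copies were named for high counts or for the widest change of share between arms. A lack of overlap in a copy named for its change is therefore partly a result of that choice. How many of all 112 copies lacked overlap was not counted. A single Cys copy, TRC-GCA2-4 on chromosome 17 (chr17:39154491-39154562, between genes), held a median of 75.2% of Cys-GCA counts without PNK (lowest 51.7%, highest 82.0%, n = 15). With PNK it held 18.4% (12.6% to 35.9%, n = 15), so that the arms did not overlap. Without PNK, 2 of the 30 Cys copies held 80% of the counts, and with PNK this took 9 copies. TRC-GCA6-1, in an intron of CPNE4 (chr3:132229100-132229171), held 2.62% without PNK (1.19% to 8.20%) and 15.9% with it (5.21% to 17.9%), with overlapping ranges.

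Among the Asn copies, TRN-GTT10-1 (chr1:145129239-145129312, between genes) held 11.3% of Asn-GTT counts without PNK (7.81% to 23.6%) and 35.0% with it (30.4% to 66.0%), again with no overlap. TRN-GTT24-1 (chr1:146370101-146370174, in an intron of the pseudogene SEC22B4P) held 29.7% (14.3% to 46.2%) and 8.23% (2.25% to 14.3%). The TRN-GTT10-1 share was highest in G8 libraries 1 and 2 in each arm. Without PNK they had 22% and 23.6%, above the other 13, and with PNK they had 66.0% and 56.1%, above the other 13 as well.

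Among the Gln copies the most abundant Gln-CTG copy, TRQ-CTG1-4 in an intron of RAB11A (chr15:65869062-65869133), held 28.7% of Gln-CTG without PNK (24.7% to 31.8%) and 19.0% with it (14.7% to 52.9%). TRQ-CTG1-2 (chr6:27519529-27519600) held 9.36% and 10.9%. TRQ-TTG2-1 (chr6:28589379-28589450, over exons of AL049543.1 and ZBED9) held a median of 14.1% of Gln-TTG without PNK (7.52% to 17.4%) and 2.57% with it (1.28% to 5.09%), with no overlap. TRQ-TTG1-1 held 30.3% and 39.6% and TRQ-TTG3-3 23.4% and 23.3%.

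Among the Thr copies, TRT-TGT2-1 (chr1:222465005-222465077) held 54.8% (40.7% to 82.5%) and 30.4% (19.7% to 44.4%), and TRT-TGT3-1 (chr14:20613790-20613862) held 16.5% (5.83% to 19.8%) and 31.8% (22% to 40.1%). The latter did not overlap between arms. The Thr-AGT copies TRT-AGT1-1 and TRT-AGT1-3 held 29.4% and 32.5% without PNK and 30.8% and 32.4% with it. A copy with no RefSeq match, tRNA-Thr-CGT-6-1 (chr6:27303789-27303860, in an intron of POM121L2), held 0.535% of Thr-CGT without PNK (0% to 1.53%) and 23.2% with it (2.09% to 90.7%), again with no overlap. The other named Thr-CGT copies, TRT-CGT2-1 and TRT-CGT4-1, held 51.7% and 42.2% without PNK and 30.8% and 38.7% with it. These shares are descriptions with no test, and a copy's share is uncertain where copies share reads.

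**Figure D1:**
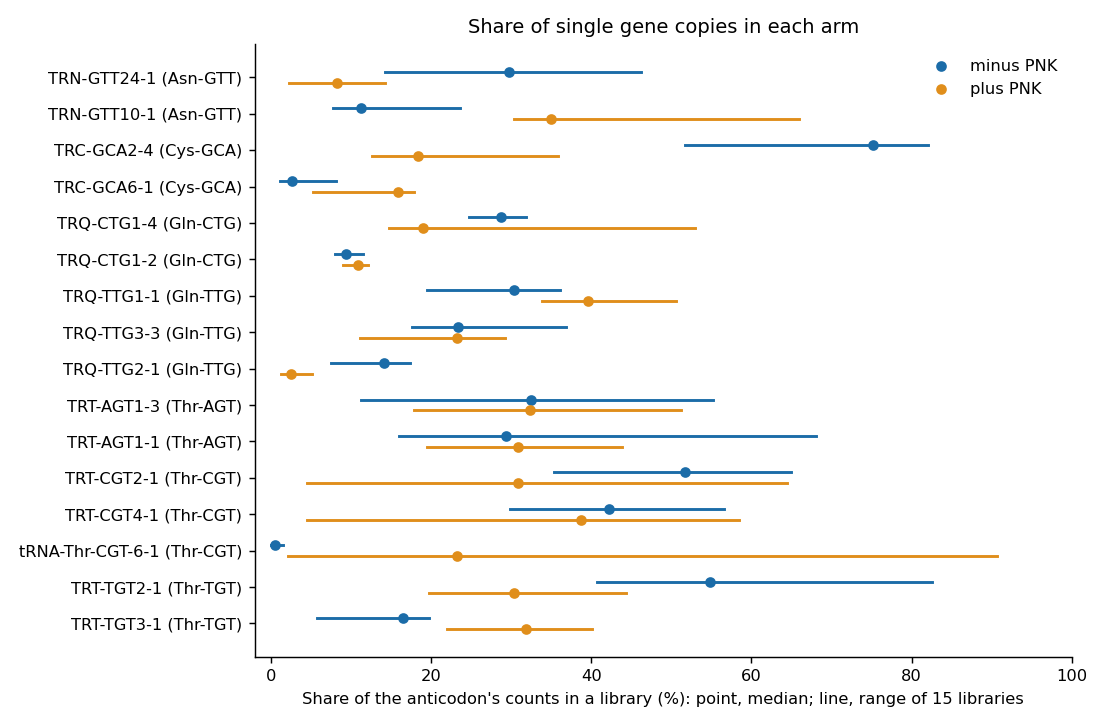
Share of an anticodon's counts (%, horizontal axis) held by each named gene copy (vertical axis, symbol and anticodon); points are medians and lines the range over the 15 libraries of an arm. TRC-GCA2-4 lies at 51.7% to 82.0% without PNK and at 12.6% to 35.9% with it, and tRNA-Thr-CGT-6-1 reaches 90.7% in 1 library with PNK.

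Summed by anticodon, the members took up different shares of nuclear tRNA with and without end repair. All 7 tested members changed, 1 higher and 6 lower, in a comparison in which 87.5% of 48 anticodons were called, so a call alone does not set them apart. Of all 48 anticodons 6 rose (12.5%) and 36 fell (75%). Because the unit is a share of nuclear tRNA, a lower share can stand beside more reads. The median log2 change was -1.83 over the members and -1.65 over all 48.

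Gln-CTG, which reads a CAG codon, was the member that rose. Its share had a median of 0.589% without PNK (lowest 0.412%, highest 1.03%) and 1.09% with it (0.317% to 3.22%), a log2 change of 0.95 (SE 0.233, adjusted p = 0.000483), rank 4 of 48. The arms overlapped, and the rise was uneven. With PNK G8 libraries 1 and 2 had 0.317% and 0.379%, below the 0.750% and 0.713% of G8 libraries 1 and 2 without PNK. G8 library 3 had 2.73% with PNK, and mock libraries 2 and 3 had 3.22% and 2.60%. The log2 change above is a mean over the groups. By group it was 2.02 in mock (SE 0.537), 1.32 in A4 (0.526), 0.69 in A7 (0.520), 0.46 in G8 (0.519) and 0.25 in E4 (0.518). When all libraries were scaled by TMM factors over the whole table, in place of the nuclear tRNA total, Gln-CTG fell by 0.70 (adjusted p = 0.00124).

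Gln-TTG, the other Gln isoacceptor, fell by 0.68 on the log2 scale (SE 0.188, adjusted p = 0.00145), from 0.130% (0.0770% to 0.189%) to 0.0696% (0.0348% to 0.162%). The largest fall among the members was that of Thr-AGT, by 3.33 (SE 0.151, adjusted p = 3.53e-18), from 0.160% (0.0733% to 0.192%) to 0.0164% (0.00876% to 0.0206%), with no overlap. Thr-TGT fell by 2.3 (SE 0.188, adjusted p = 3.33e-12), from 0.762% (0.269% to 1.18%) to 0.159% (0.0577% to 0.220%), also with no overlap. Cys-GCA fell by 1.98 (SE 0.161, adjusted p = 3.27e-12), from 1.04% (0.612% to 1.46%) to 0.265% (0.102% to 0.415%), and its arms were apart in the same way.

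Thr-CGT fell by 1.83 (SE 0.260, adjusted p = 2.00e-07), from 0.197% (0.134% to 0.267%) to 0.0422% (0.0109% to 0.476%). The upper end of that last range is A4 library 2 alone, and the next value was 0.0745%. Asn-GTT fell by 1.69 (SE 0.176, adjusted p = 4.80e-10), from 1.46% (0.514% to 3.34%) to 0.443% (0.190% to 0.627%). In an alternative, every anticodon was counted by its most abundant copy, and shares were taken of the sum of those copies. Asn-GTT, whose copy gained share within the anticodon, then rose by 0.81 (adjusted p = 0.000131), and Gln-TTG by 0.57 (adjusted p = 0.00102). These are not shares of nuclear tRNA, so they cannot be set directly beside the falls above.

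**Figure D2:**
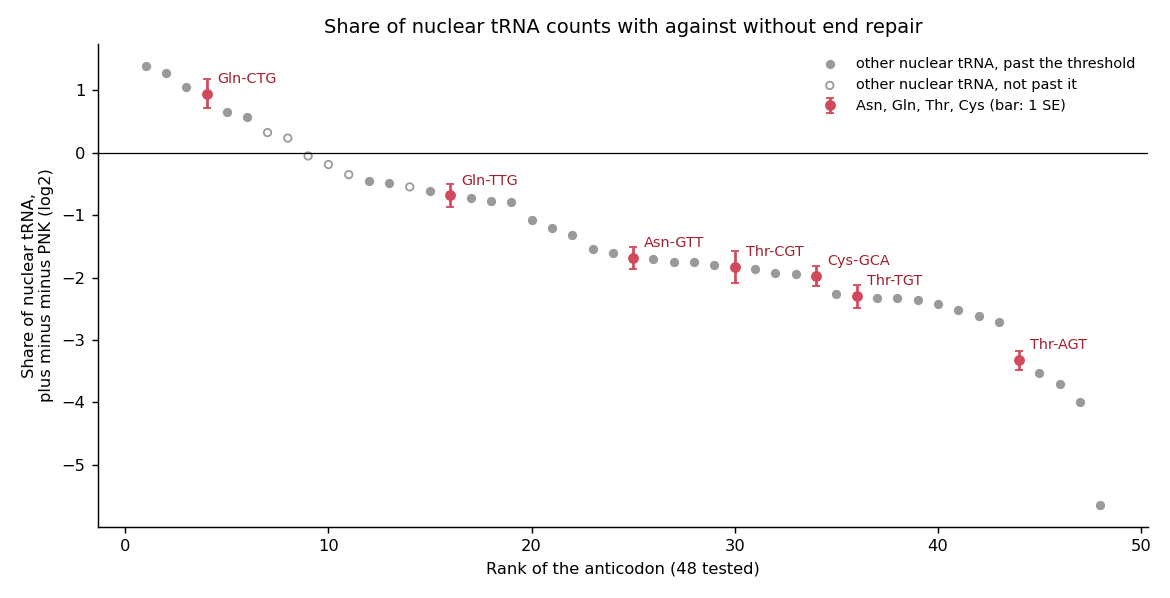
Log2 difference of the share of nuclear tRNA counts, plus minus minus PNK (vertical axis), for 48 anticodons in rank order (horizontal axis); red points are the 7 members with 1 SE, grey points other anticodons, open where not past the threshold. Gln-CTG ranks 4 at 0.95, and Thr-AGT is the lowest member at -3.33.

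The difference between arms was not shown to depend on the group for any member. None of 7 members was called in the test of the interaction, where 6.25% of 48 anticodons were. The smallest adjusted p was 0.137, for Thr-CGT (unadjusted p = 0.0199), whose log2 difference was 0.06 (SE 0.563) in A4 and -2.59 to -1.99 in the other groups. Without the replicates numbered 3, 3 members were called: Thr-CGT (adjusted p = 0.00364), Thr-TGT (0.00731) and Gln-CTG (0.00905).

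The balance of isoacceptors, given here with no test, also differed between the arms for Gln. Gln-CTG made up 83.8% of Gln counts without PNK (79.3% to 85.3%) and 93.7% with it (88.3% to 95.9%), so that every library with PNK lay above every library without. Without PNK the 3 E4 libraries had the lowest Gln-CTG shares of all 15, at 79.3% to 80.1%, and the 3 G8 libraries had 84.5% to 85.3%. Within Thr, TGT made up 65.3% (56.4% to 78.9%) and 72.3% (25.0% to 79.8%), CGT 19.5% (9.69% to 28.2%) and 20.2% (14.0% to 72.0%), and AGT 15.1% (8.33% to 19.2%) and 7.69% (2.96% to 11.6%). The 25.0% for TGT and 72.0% for CGT are the same library, A4 library 2 with PNK.

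**Figure D3:**
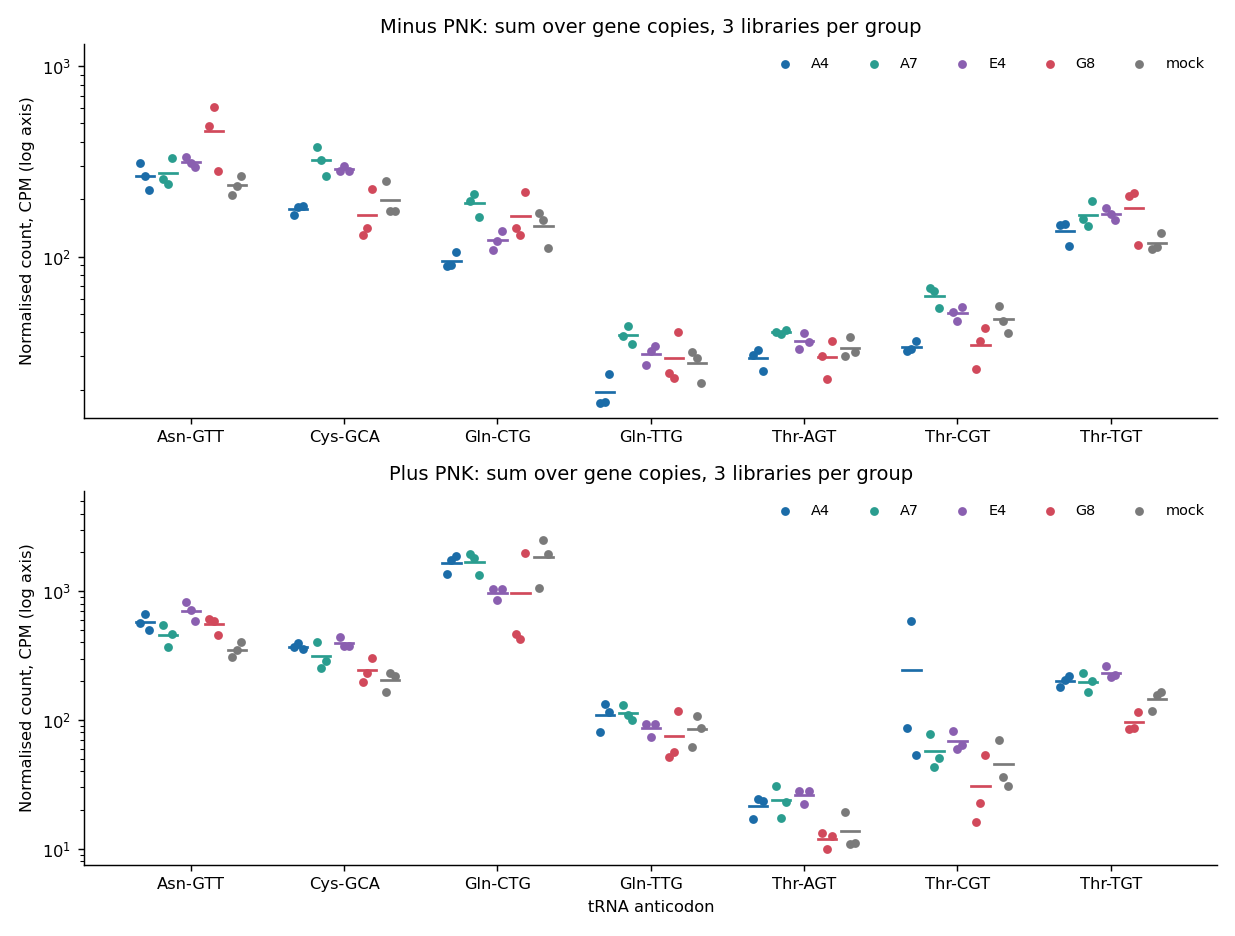
Normalised count (CPM, log vertical axis) of each anticodon sum (horizontal axis) in every library, without PNK (top) and with PNK (bottom); points are libraries and short lines the mean of 3. With PNK, Thr-TGT lies at 85.0 to 115 CPM in G8 and at 164 to 262 in A4, A7 and E4, and Thr-CGT reaches 591 in A4 library 2.

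Among the THP-1 groups without PNK, which asks whether the cell populations differ in their tRNA, 1 of 7 members was called in the F test across A4, A7, E4 and G8, where 31.9% of 1446 features were. This was Cys-GCA. It stood at 166, 181 and 185 CPM in A4, 375, 321 and 264 in A7, 282, 300 and 280 in E4, and 129, 140 and 226 in G8. A4 lay below all of A7 and E4, and A7 above all of G8, while A4 and G8 overlapped. The adjusted p was 0.0487, and it lay between 0.0640 and 0.155 without any 1 of the A4, A7 or E4 libraries or without G8 library 1 or 2. It was also lost with DESeq2 size factors (0.0758), miRNA factors (0.0800), the nuclear tRNA total (0.224), no filter on low counts (0.798) and the replicate block (0.0855). Without G8 library 3, 6 members were called. Of 41 other nuclear anticodons tested, 15 were called, and of 39 small Pol III RNAs 6.

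Thr-CGT and Gln-CTG missed the threshold in that test (adjusted p = 0.0556 and 0.0634). Thr-CGT had 31.8, 32.9 and 36.0 CPM in A4, 68.0, 65.6 and 53.4 in A7, 51.3, 45.9 and 54.1 in E4, and 25.6, 35.9 and 41.9 in G8. Gln-CTG had 89.0, 89.7 and 106 CPM in A4 and 197, 212 and 161 in A7, the lowest and highest of the group means. Of the 6 pairs, members were called between A7 and G8 alone, where 29.2% of features were called (16.9% higher in A7): Cys-GCA higher in A7 by 0.95 (SE 0.295, adjusted p = 0.0330) and Thr-CGT by 0.85 (SE 0.279, adjusted p = 0.0404). In the other 5 pairs no member was called, where the share of all features was 4.98% for A4 and A7, 0.207% for A4 and E4, 25.2% for A4 and G8, 0.0692% for A7 and E4, and 21.9% for E4 and G8. With factors from miRNA rows these differences were -0.91 and -1.08, while the median of all features moved by -1.84, and G8 libraries 1 and 2 are those poor in miRNA. Relative to that median they were 0.68 and 0.51, against 0.70 and 0.60 with TMM factors. With library 3 as the sole G8 library they were 0.48 (adjusted p = 0.234) and 0.56 (adjusted p = 0.182). Cys-GCA also lost its call without A7 library 1 or 2 (adjusted p = 0.124 and 0.112) or G8 library 1 or 2 (0.245 and 0.182). Thr-CGT lost it without any 1 A7 library (0.137, 0.157 and 0.0540) or G8 library 1 or 2 (0.378 and 0.154).

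With PNK the 3 Thr isoacceptors were the members called across the THP-1 groups, 3 of 7 where 21.8% of 8308 features were. Thr-TGT had 85.0, 86.7 and 115 CPM in G8, against 179, 205 and 220 in A4, 230, 164 and 202 in A7, and 262, 215 and 224 in E4. G8 lay below all 9 libraries of the other groups, and those overlapped one another (adjusted p = 0.00159). Thr-TGT was higher than in G8 by 1.07 in A4 (SE 0.197, adjusted p = 0.00190), 1.05 in A7 (SE 0.197, adjusted p = 0.00433) and 1.29 in E4 (SE 0.198, adjusted p = 0.00113). Leaving out any 1 library ended none of these 3 calls. Without PNK Thr-TGT was not low in G8, at 209, 214 and 115 CPM against 114 to 196 in A4, A7 and E4. No difference was called there (adjusted p = 0.695 in the F test across the groups). The differences from G8 without PNK were -0.39 in A4, -0.12 in A7 and -0.11 in E4.

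Thr-AGT, the least abundant Thr isoacceptor with PNK, was low in G8 in that arm as well, at far fewer reads, 41 to 163 per library. It had 13.3, 9.90 and 12.6 CPM in G8, 17.1, 24.3 and 23.3 in A4, 31.0, 17.3 and 23.1 in A7, and 27.9, 22.3 and 27.9 in E4. G8 was again below the other 9 libraries (adjusted p = 0.00983). The difference from G8 was 0.84 in A4 (SE 0.227, adjusted p = 0.0222), 0.98 in A7 (SE 0.225, adjusted p = 0.0144) and 1.12 in E4 (SE 0.224, adjusted p = 0.00589). The call across groups was lost without G8 library 2 (adjusted p = 0.0527). That for A4 was lost without A4 library 2 or 3 (0.0768 and 0.0649) or G8 library 2 (0.0967), and that for A7 without A7 library 1 (0.0786) or G8 library 2 (0.0684).

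The values of these Thr differences moved with the scaling, and their calls with G8 libraries 1 and 2. With factors from miRNA rows the median of all features moved by -1.29, -1.42 and -1.49 in A4, A7 and E4 against G8. On that scale Thr-TGT was -0.22, -0.40 and -0.21 in A4, A7 and E4 against G8, and Thr-AGT was -0.45, -0.51 and -0.39. Relative to the median of all features, Thr-TGT stood at 1.11, 1.05 and 1.30 with those factors and at 1.11, 1.08 and 1.31 with TMM factors. By the most abundant copy Thr-AGT lost all of its calls with PNK: the adjusted p was 0.221 across the groups, and the differences from G8 were 0.37 in A4 (adjusted p = 0.429), 0.63 in A7 (0.166) and 0.64 in E4 (0.145). As shares of nuclear tRNA, Thr-TGT kept its direction at 0.73, 0.45 and 0.81 and lost the call (adjusted p = 0.218, 0.370 and 0.143), as did Thr-AGT at 0.56, 0.42 and 0.69 (adjusted p = 0.332, 0.377 and 0.191). With library totals the calls in A4 were lost, Thr-TGT at 0.74 (adjusted p = 0.0634) and Thr-AGT at 0.54 (0.155). With library 3 as the sole G8 library, Thr-TGT differed by 0.82, 0.82 and 1.06 (adjusted p = 0.101, 0.142 and 0.0589) and Thr-AGT by 0.77, 0.94 and 1.08 (adjusted p = 0.201, 0.158 and 0.0923). Members called in the pairs with G8 numbered 3 of 7 for A4 (13.9% of features called, 8.76% higher in A4), 2 for A7 (8.2%, 4.74% higher) and 2 for E4 (10.4%, 5.66% higher). None was called between A4 and E4 (10.2%) or between A7 and E4 (0.0361%). Other nuclear tRNA were also higher than in G8, 18, 9 and 16 of 41 anticodons, with none lower. Without G8 library 3, 6 members were called across the groups, Gln-CTG (adjusted p = 0.000105), Gln-TTG (0.00838) and Cys-GCA (0.0263) among them.

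With PNK, most Thr-CGT counts of A4 library 2 came from 1 copy. A4 library 2 had 591 CPM, against 86.3 and 53.9 in A4 libraries 1 and 3. A7 had 77.9, 43.5 and 50.5, E4 81.6, 60.0 and 64.0, G8 16.0, 22.7 and 53.4, and mock 69.7, 36.3 and 30.5. Of the 2334 Thr-CGT counts of A4 library 2, 2117 (90.7%) were tRNA-Thr-CGT-6-1, while the other 5 copies stood at 54.9 CPM there and at 44.8 and 39.2 in A4 libraries 1 and 3. The copy made up 48.1% of Thr-CGT in A4 library 1, 56.1% in mock library 1, and 2.09% to 35.0% in the remaining 12 libraries with PNK. POM121L2 lies on the same strand as this tRNA. Strand is not used in these counts in any case, so reads from the POM121L2 intron and from the tRNA cannot be told apart.

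The call of Thr-CGT across the groups (adjusted p = 0.0136) was lost without A4 library 2 (adjusted p = 0.0973). A4 was higher than G8 by 2.97 (SE 0.688, adjusted p = 0.00899) and than A7 by 2.09 (SE 0.661, adjusted p = 0.0453), where 14.4% of features were called (8.87% higher in A4) and Thr-CGT was the 1 member of 7. Without A4 library 2 these were 1.18 (adjusted p = 0.0687) and 0.30 (adjusted p = 0.706). The difference from A7 was also lost without any 1 A7 library (adjusted p = 0.0673, 0.148 and 0.131). Summed without tRNA-Thr-CGT-6-1, an alternative chosen after seeing the data, A4 and A7 differed by -0.02 (adjusted p = 0.982), the contrast of A4 with mock was 0.71 (adjusted p = 0.112), and that of E4 with mock was 0.91 (adjusted p = 0.0471). In the same setting the call across the THP-1 groups held (adjusted p = 0.0205), and A4 exceeded G8 by 1.06 (adjusted p = 0.0222). The other 5 copies stood at 12.6, 18.4 and 34.7 CPM in G8, below each A4, A7 and E4 library, the lowest of which had 38.5. By the most abundant copy A4 exceeded G8 by 1.77 (adjusted p = 0.000984), and the call across the groups also held (adjusted p = 0.000658). With library 3 as the sole G8 library, A4 exceeded G8 by 2.18 (adjusted p = 0.225).

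**Figure D4:**
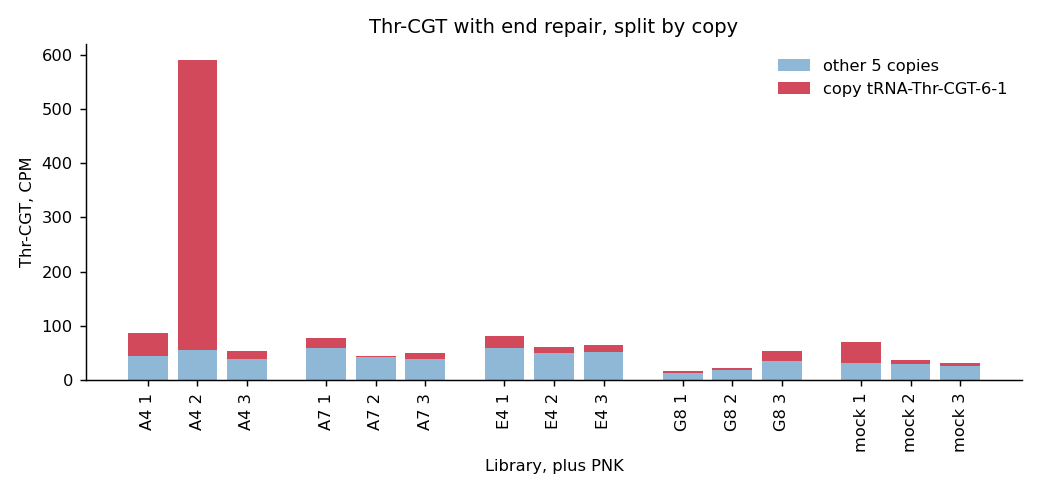
Thr-CGT in each library with PNK (CPM, vertical axis; libraries on the horizontal axis), with the copy tRNA-Thr-CGT-6-1 in red and the other 5 copies in blue. In A4 library 2 the copy accounts for 536 of 591 CPM, and the other copies span 12.6 to 59.8 CPM over the 15 libraries.

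Against the libraries labelled mock, a contrast that by the labels crosses cell lines, few members were called without PNK. The 4 contrasts share the mock libraries. By edgeR, none of 7 members was called in A4, A7 or E4, where 0.202%, 0% and 1.08% of 1488 features were. DESeq2 also called no member. At an unadjusted p under 0.05, 204 features were found in A4, among them Gln-CTG at -0.62 (SE 0.283, adjusted p = 0.356), and 161 in A7, among them Cys-GCA at 0.69 (SE 0.285, adjusted p = 0.418). E4 had 224, with no member among them. Changed tRNA and cell line cannot be told apart here, nor can fewer cells of a type and less RNA per cell.

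In G8 without PNK, 1 of 7 members was called, where 25.2% of features were (9.61% higher). Asn-GTT had 487, 607 and 281 CPM in G8 against 210, 235 and 264 in mock, higher in all 3 G8 libraries by 0.96 (SE 0.298, adjusted p = 0.0313). The 2 libraries poor in miRNA carried most of it: with library 3 as the sole G8 library the difference was 0.43 (adjusted p = 0.390). The call was also lost without G8 library 2 (adjusted p = 0.0679), without any 1 mock library (0.121, 0.0987 and 0.0523), and with library totals (0.30, adjusted p = 0.324). Without G8 library 3, 4 members were called, with Thr-TGT higher and Cys-GCA and Thr-CGT lower beside Asn-GTT. With factors from miRNA rows all 7 were called higher, as were 675 of 1488 features (799 called in all), and the median of all features moved by 1.62. DESeq2 called Asn-GTT and Thr-TGT, both higher. With library totals 1 member was called, and it was lower.

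With PNK, some members were called against mock in A4 and E4. In A4, 3 of 7 were called, all higher, where 10.1% of 8916 features were (7.17% higher). In E4, 3 were called, all higher, where 7.19% were (4.69% higher). Not all members lay above mock there: Gln-CTG was -0.15 in A4 (adjusted p = 0.895) and -0.92 in E4 (adjusted p = 0.254). None was called in A7 or G8, where 4.7% and 5.54% were. At an unadjusted p under 0.05, 1544 features were found in A7, among them Cys-GCA at 0.61 (adjusted p = 0.148), Thr-AGT at 0.80 (adjusted p = 0.0721) and Thr-TGT at 0.44 (adjusted p = 0.272). In G8 there were 1791, among them Asn-GTT at 0.65 (adjusted p = 0.0951) and Thr-TGT at -0.61 (adjusted p = 0.0872). DESeq2 called none in A7 and 2 in G8, 1 higher and 1 lower.

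Asn-GTT stood at 306, 347 and 400 CPM in mock, 566, 670 and 497 in A4 and 821, 715 and 586 in E4. A4 and E4 lay above all mock libraries, by 0.72 (SE 0.222, adjusted p = 0.0467) and 1.01 (SE 0.223, adjusted p = 0.00935). G8, at 613.5, 585 and 455 CPM, also lay above all mock libraries, with no call (0.65, SE 0.222, adjusted p = 0.0951). Cys-GCA stood at 164, 232 and 220 CPM in mock, 366, 396 and 353 in A4 and 439, 378 and 374 in E4. It was higher by 0.86 in A4 (SE 0.225, adjusted p = 0.0192) and 0.95 in E4 (SE 0.226, adjusted p = 0.0143), again with no overlap. A7, at 403, 252 and 286 CPM, did not overlap mock either, with no call (0.61, SE 0.225, adjusted p = 0.148). Thr-AGT stood at 19.3, 10.9 and 11.1 CPM in mock and was higher in E4 by 0.93 (SE 0.243, adjusted p = 0.0251). Thr-CGT was higher in A4 by 2.42 (SE 0.651, adjusted p = 0.0217), and by 0.63 (adjusted p = 0.468) without A4 library 2.

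Among other nuclear tRNA with PNK, 18 of 41 anticodons were called in A4, 10 in A7 and 16 in E4, all higher, and 5 in G8. Of 40 small Pol III RNAs such as vault, Y and 5S RNA, 24, 2, 3 and 11 were called higher in A4, A7, E4 and G8. The direction moved with the scaling of the whole table. With factors from miRNA rows the median of all features moved by -1.01, -1.07 and -1.03 in A4, A7 and E4, and the calls among members became 1 higher and 1 lower in A4, 1 lower in A7 and 2 lower in E4. Of all 8916 features, 4573, 5401 and 5024 were then called lower, of 4802, 5426 and 5084 called. Relative to the median, Asn-GTT stood at 0.76 in A4 and 1.01 in E4 with those factors, and at 0.73 and 1.04 with TMM factors. As shares of nuclear tRNA, 1 member (in A4) and none (in E4) were called.

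Single libraries also ended these calls. In A4, Asn-GTT was lost without A4 library 1 or 2 (adjusted p = 0.105 and 0.179) or any mock library (0.124, 0.134 and 0.0687). Cys-GCA was lost there without A4 library 2 (0.0651) or mock library 1 or 3 (0.0677 and 0.0501), and Thr-CGT without mock library 2 or 3 (0.0910 and 0.0991). In E4, all 3 calls were lost without E4 library 1 (0.0573 for Asn-GTT, 0.0665 for Cys-GCA and 0.0856 for Thr-AGT). Thr-AGT was also lost there without E4 library 3 (0.0755) or mock library 2 or 3 (0.118 and 0.115). With the replicate block 1 member was called in A4.

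Gln-CTG, the most abundant member with PNK, was not called in any contrast with mock. It stood at 1052, 2519 and 1947 CPM in mock, 1368, 1749 and 1870 in A4, 1943, 1799 and 1331 in A7, 1046, 847 and 1031 in E4, and 467, 429 and 1985 in G8. All A4 and A7 values lay inside the range of mock, and all E4 values lay below it (-0.92, SE 0.449, adjusted p = 0.254). The contrast of G8 with mock was -0.94 (SE 0.449, adjusted p = 0.252). Without G8 library 3 that contrast was -2.04 (adjusted p = 0.000722), and 3 members were then called in G8, with Thr-TGT at -0.77 and Asn-GTT at 0.77. Without mock library 1, Thr-AGT was called in A4 (0.96, adjusted p = 0.0170) and A7 (1.11, adjusted p = 0.0123) and Thr-TGT in G8 (-0.75, adjusted p = 0.0435). Without A7 library 2, Thr-AGT was called in A7 at 0.99 (adjusted p = 0.0372).

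**Figure D5:**
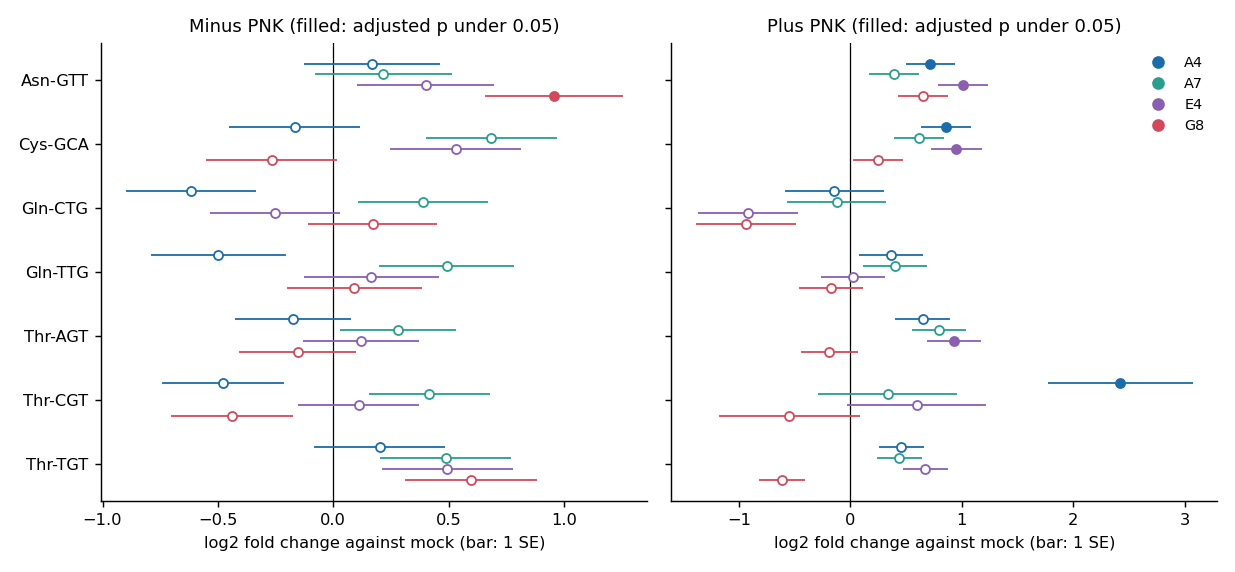
Log2 fold change of each member against the libraries labelled mock (horizontal axis, with 1 SE) by anticodon (vertical axis) and THP-1 group, without PNK (left) and with PNK (right); filled points have an adjusted p under 0.05. The 1 filled point on the left is Asn-GTT in G8 at 0.96, and the 6 on the right are in A4 and E4.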

How the data were processed

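Small RNA was sequenced from 5 groups, without and with phosphatase and PNK treatment, and 30 libraries were used. The authors deposited raw read counts per annotated feature, and strand is not used in that table. Per the submitters' processing notes the tools were Trim Galore, FastQC, Bowtie2 2.3.5.1, SAMtools 1.9, deepTools 3.2.1 and bedtools 2.28.0, with GRCh38. The placing of reads with several matches: not given in the sources used here. Full-length tRNA and fragments cannot be told apart in these counts.

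From these counts, rows that overlap a row already kept were left out, taking nuclear tRNA first, then other small RNA of at most 500 bases, then long rows, which left 85944 rows, and copies of each nuclear anticodon were summed. Each arm was fitted with edgeR 4.0.16 in R 4.3.3 (TMM factors, filterByExpr, quasi-likelihood test) over all features, with Benjamini-Hochberg adjustment and a threshold of 0.05. The groups against mock used 15 libraries in 1 fit, and the comparison among A4, A7, E4 and G8 used 12. PNK arms were compared as shares of nuclear tRNA over 30 libraries. Every adjusted p is from edgeR unless DESeq2 (1.42.0, an alternative test) is named. Fold changes are on the log2 scale.

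Every anticodon of the members is named. Among copies, the 2 with the highest mean count in each anticodon are named, and the copy with the widest change of share between arms. The members and lists were chosen with earlier results of these data known. Libraries of a group differed by more than sampling noise. In simulated counts for A4 against mock, a log2 change of 1 was recovered for 12.5% of changed features without PNK and 28.1% with it, and a change of 2 for 81% and 85.4%. Alternatives covered scaling, filter, test, replicate block, copies and left-out libraries.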

Additional observations from a re-analysis of the deposited data

How the results depend on the processing

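Of 184 settings tried on the counts of called members, 127 left the count within 1.5 times and 57 did not. With factors from miRNA rows, 7 members were called in G8 against mock and 6 among A4, A7, E4 and G8 without PNK (Cys-GCA not among the 6), and 1 in A7 against mock with PNK. With library totals the counts were 2 among the THP-1 groups without PNK, and 1 in A4 and 0 in E4 with PNK. With the nuclear tRNA total they were 0 and 1 among the THP-1 groups without and with PNK, 1 in A4 and 0 in E4. Without a filter on low counts they were 0 in G8 and 0 among the THP-1 groups without PNK, and 1 in A4 and 1 in G8 with PNK. By the most abundant copy they were 5 among the THP-1 groups without PNK, 0 in both A4 and E4 with PNK, 1 in A7, 2 in G8, and 2 in the interaction. DESeq2 gave 2 in G8 and 5 among the THP-1 groups without PNK, and 2 in G8 with PNK. With library 3 as the sole G8 library, 0 members were called in G8 and 4 among the THP-1 groups without PNK. The interaction called 1 member with whole-table TMM factors and 1 without the group G8.

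With factors from miRNA rows, G8 against mock without PNK became 1.49 for Cys-GCA (from -0.27), 1.72 for Thr-AGT (from -0.15) and 1.38 for Thr-CGT (from -0.44), and A7 against G8 became -0.91 for Cys-GCA and -1.08 for Thr-CGT. With PNK, Asn-GTT and Cys-GCA became -0.27 and -0.15 in A4 and -0.038 and -0.10 in E4, and Gln-TTG and Thr-AGT in E4 became -1.03 and -0.084. Thr-AGT and Thr-TGT became -0.45 and -0.22 for A4, -0.51 and -0.40 for A7 and -0.39 and -0.21 for E4 against G8. By the most abundant copy, Thr-CGT between A4 and A7 became -0.42. The PNK differences of Asn-GTT and Gln-TTG became 0.81 and 0.57, there as shares of the summed most abundant copies and not of nuclear tRNA. Without tRNA-Thr-CGT-6-1, chosen after seeing the data, Thr-CGT between A4 and A7 became -0.016. With whole-table TMM factors the PNK difference of Gln-CTG became -0.70. With miRNA factors the median of all features moved by 1.62 (G8 against mock) and -1.84 (A7 against G8) without PNK. With PNK it moved by -1.01 and -1.03 (A4 and E4 against mock) and by -1.29, -1.42 and -1.49 (A4, A7 and E4 against G8). Relative to the median, G8 against mock without PNK went from -0.02 to 0.12 for Cys-GCA and from -0.19 to 0.01 for Thr-CGT. For the other changes of sign with these factors, the value relative to the median kept its sign. What caused the changes of sign was not tested.

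Leaving out 1 library at a time gave 0 to 4 called members in G8 against mock without PNK and 0 to 0 in A4, A7 and E4. With PNK the range was 0 to 3 in A4 as well as in E4 and G8, and 0 to 1 in A7. Among the THP-1 groups it gave 0 to 6 without PNK and 2 to 6 with it. Leaving out 1 replicate number gave 7 to 7 for the PNK shares and 0 to 3 for the interaction.

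With the replicate block, the count became 0 in G8 against mock and 0 among the THP-1 groups without PNK, and 1 in A4 against mock with PNK. The labels give shared numbers and do not say what a number marks. Same-numbered libraries deviated together, with all 3 correlations over 0.1, for A4 and E4 (0.56, 0.73 and 0.86), A4 and G8 (0.58, 0.13 and 0.47) and A7 and mock (0.10, 0.53 and 0.53) without PNK, and between the arms of A4, E4 and G8 (0.20 to 0.65). They did not for the other pairs, nor across all groups of any test. Among those other pairs without PNK, all 3 correlations were negative for A4 and mock (-0.67, -0.61 and -0.86), E4 and mock (-0.45, -0.61 and -0.79) and G8 and mock (-0.41, -0.26 and -0.5). For A7 against mock without PNK the block left 0 members called. Under the block the adjusted p for A7 against G8 without PNK was 0.0506 for Cys-GCA and 0.0550 for Thr-CGT, and with PNK that of Thr-CGT was 0.124 for A4 against A7 and 0.0740 across the THP-1 groups. The block left the PNK share calls at 7 and the interaction at 0.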
